A study of Mus musculus with 4 samples.

Results

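A mutually exclusive exon pair consists of neighbouring exons between the same flanking exons, of which a transcript is thought to carry the 5′ or the 3′ exon. All 1248 pairs that Quantas lists for the mouse were taken, out of 38240 alternative splicing events of 6 types, and they lie in 803 genes. RNA came from the cortex of E14.5 mouse embryos, with 2 control samples (*Qk fl/fl*, called wild type in the labels) and 2 *Qk cKO* samples (*Nestin-Cre:Qk fl/fl*), described as littermates, so both groups carry the floxed *Qk* allele and differ by the Cre transgene. *Nestin-Cre* acts mainly in neural progenitor cells and their progeny, and not in blood or microglia within the tissue. For each pair, use of the 5′ exon (the one nearer the start of the transcript) was the share of junction tags that join it to its flanks, among the tags that join either exon to its flanks, and Δ*I* was the use in control minus that in *Qk cKO*. A tag is the unit of reads that Quantas counts, and its number is an estimate that need not be whole.

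Choosing between mutually exclusive exons lets a gene keep the length and reading frame of its protein while a stretch of residues is exchanged. Classical pairs of this kind change the allosteric control of pyruvate kinase M (*Pkm*), the ligand preference of fibroblast growth factor receptors, and the desensitization of AMPA receptors through the flip and flop exons. *Qk* encodes the Qki proteins, which bind RNA at ACUAAC-like sites and act in neural stem cells as regulators of splicing. The exons that the results below turn on are shown first.

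The 2 exons of *Pkm*, *Rab6a* and *Cyfip1* are similar in sequence. In their printed forms, taken 5′ to 3′ from the GENCODE M21 transcripts on GRCm38 (the build mm10), capitals mark the bases without an identical partner in a global alignment of the 2 exons of a gene. The coding exons of *Pkm* lie on the plus strand of chromosome 9, the 5′ exon at chr9:59675029-59675195 and the 3′ exon at chr9:59675568-59675734, and each is exon 9 of its own transcript. Those of *Rab6a* lie on the plus strand at chr7:100629666-100629771 and chr7:100629838-100629943, and those of *Cyfip1*, also on the plus strand, at chr7:55897825-55897972 and chr7:55898238-55898391.
Pkm 5′ exon: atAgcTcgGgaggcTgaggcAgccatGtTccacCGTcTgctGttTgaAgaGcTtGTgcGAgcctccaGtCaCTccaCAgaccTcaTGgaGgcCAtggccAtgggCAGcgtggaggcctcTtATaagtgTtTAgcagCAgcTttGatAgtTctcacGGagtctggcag
Pkm 3′ exon: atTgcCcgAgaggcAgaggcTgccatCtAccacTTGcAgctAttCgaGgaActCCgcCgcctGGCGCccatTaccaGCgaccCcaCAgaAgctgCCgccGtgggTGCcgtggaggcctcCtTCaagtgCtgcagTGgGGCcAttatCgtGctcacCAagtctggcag
Rab6a 5′ exon: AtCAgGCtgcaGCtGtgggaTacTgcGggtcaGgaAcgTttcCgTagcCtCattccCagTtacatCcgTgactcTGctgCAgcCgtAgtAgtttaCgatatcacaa
Rab6a 3′ exon: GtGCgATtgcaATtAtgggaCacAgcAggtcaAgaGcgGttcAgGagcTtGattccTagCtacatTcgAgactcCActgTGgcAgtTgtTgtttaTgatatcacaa
Cyfip1 5′ exon: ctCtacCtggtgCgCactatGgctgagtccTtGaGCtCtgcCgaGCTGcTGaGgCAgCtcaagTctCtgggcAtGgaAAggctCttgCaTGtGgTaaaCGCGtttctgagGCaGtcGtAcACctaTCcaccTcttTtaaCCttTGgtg
Cyfip1 3′ exon: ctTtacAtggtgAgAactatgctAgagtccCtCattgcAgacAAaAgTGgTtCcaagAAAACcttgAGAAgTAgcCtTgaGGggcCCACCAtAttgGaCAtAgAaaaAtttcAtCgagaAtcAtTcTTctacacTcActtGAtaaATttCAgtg
Of 167 bases in each *Pkm* exon, 50 differ (identity 70.1%). The *Rab6a* exons of 106 bases differ at 30 (identity 71.7%). Those of *Cyfip1* have 148 and 154 bases, and 58 bases of the longer exon have no identical partner, gaps included (identity 62.3%).

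The exons of *Cask* are shown for a hexamer that resembles the Qki site, and those of *Rps24* because no other pair was called against the spread between samples. *Cask* has both exons on the minus strand of chromosome X, the 5′ exon at chrX:13552373-13552441 and the 3′ exon at chrX:13550947-13550982, and capitals mark the hexamer ACTAAC in the 5′ exon. The 2 short exons of *Rps24* lie on the plus strand at chr14:24494052-24494069 and chr14:24495430-24495449, and no annotated transcript holds either wholly within its coding sequence.
Cask 5′ exon: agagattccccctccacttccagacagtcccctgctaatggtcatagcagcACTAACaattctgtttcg
Cask 3′ exon: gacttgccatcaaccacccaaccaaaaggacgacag
Rps24 5′ exon: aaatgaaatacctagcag
Rps24 3′ exon: tgagtggagattggatacag

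The labels were checked first on *Qk* itself. Tags joining exon 2 (the floxed exon) to exon 3 numbered 635 and 565 in the controls and 63 and 68 in *Qk cKO*, while tags joining exon 3 to exon 4 numbered 574 and 439 in the controls and 898 and 830 in *Qk cKO*. Between 37942046 and 42994832 tags were assigned to genes in each sample, and between 240408 and 282155 junction tags fell on the 1248 pairs. Cortical, neuronal and progenitor markers were present in every sample. All 7 markers of the hypothalamus that were listed were higher in the controls, 5 of them past the threshold of edgeR's quasi-likelihood test, with summed levels of 5.65 and 11.6 RPKM in the controls and of 4.04 and 3.45 RPKM in *Qk cKO*. The part that this difference in tissue has in the splicing results was not tested. The progenitor marker *Fabp7* was also lower in *Qk cKO* (log2 fold change -0.45, edgeR FDR 0.0153), the only 1 of 5 listed radial glia markers that was called. Log2 fold changes of the others were -0.29 for *Sox2*, -0.19 for *Hes5*, -0.01 for *Vim* and 0.04 for *Nes*. *Krt19*, an epidermal keratin, was at 0 RPKM in both controls and at 0.30 and 0.69 RPKM in *Qk cKO*. The other epidermal marker, *Krt14*, was at 0.239 and 0.107 RPKM in the controls and at 0.0811 and 0.113 RPKM in *Qk cKO* and was not called.

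To find pairs whose exon choice depends on *Qk*, the tags of the 2 isoforms were compared by Fisher's exact test. Of the 1248 pairs, 598 pairs in 440 genes had a coverage of at least 20 junction tags and were tested, 650 had less, and 136 of those had no junction tag in any sample. Of these, 24 in 21 genes (4.01%) passed both limits of a call, a p under 0.01 together with an FDR under 0.1. The 5′ exon was used more in the controls in 10 of them (1.67% of tested pairs) and more in *Qk cKO* in 14 (2.34%). A Δ*I* of at least 0.1 in size was found in 12 of the called pairs (2.01%), in 11 genes, 6 in each direction. The same test called 9.28% of 4600 cassette exons, 9.99% of 841 tandem cassette exons, 7.85% of 2648 alternative 3′ splice sites, 4.67% of 1928 retained introns and 3.28% of 885 alternative 5′ splice sites, and these shares were not compared by a test.

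**Figure D1:**
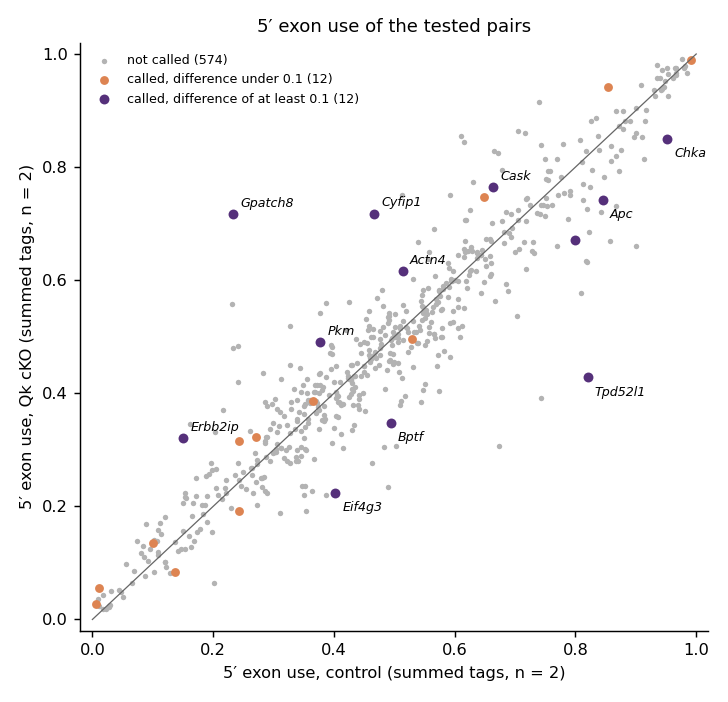
5′ exon use of the 598 tested pairs in control (horizontal axis) and *Qk cKO* (vertical axis), from tags summed over the 2 samples of each group, with the line of equal use. Most pairs lie near the line (the median size of Δ*I* is 0.0322), and *Gpatch8* and *Tpd52l1* lie farthest from it among the 12 called pairs with a Δ*I* of at least 0.1.

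The called pairs stand on a background of pairs that moved little. Over all 598 tested pairs, the median size of Δ*I* was 0.0322. The median difference in use was 0.0419 between the 2 controls and 0.0384 between the 2 *Qk cKO* samples. These are differences between single samples, whereas Δ*I* compares tags summed over 2 samples, so the sizes cannot be set directly against each other. The per-sample values of the groups did not overlap in 38.8% of tested pairs, and they did not overlap in 23 of the 24 called pairs, the exception being *Eef1d*. Fisher's exact test takes tags as independent and does not use the spread between embryos. When the interaction of exon and genotype was tested against that spread with edgeR's quasi-likelihood test, only *Rps24* was called (0.167% of tested pairs, FDR 0.00164), and 26 pairs (4.35%) had an unadjusted p below 0.05. DESeq2 also called 1 pair (0.167%) and gave 4 (0.669%) an unadjusted p below 0.05. With 2 samples against 2, an exact permutation test of a single pair cannot give a two-sided p below 0.333. The study describes the 2 samples of each group as independent.

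Among the called pairs with a Δ*I* of at least 0.1, metabolism was represented by *Pkm*, in which the 5′ exon (printed above) encodes the M1 form and the 3′ exon the M2 form of pyruvate kinase, the last enzyme of glycolysis. Its 5′ exon use was 0.368 and 0.387 in the controls and 0.515 and 0.463 in *Qk cKO*. Both *Qk cKO* values lay above both controls, and their 95% Wilson intervals (0.498 to 0.531 and 0.446 to 0.480) did not reach those of the controls (0.351 to 0.385 and 0.369 to 0.407). Such intervals cover counting error alone. Summed over samples, use of the M1 exon rose from 0.377 to 0.490 (Δ*I* -0.113, with p = 9.05e-33 and FDR 2.71e-30 by Fisher's exact test). Against the spread between samples, the edgeR interaction test gave an FDR of 0.174. For the remaining pairs named below the edgeR FDR is 1 unless it is given. *Pkm* was the deepest of these 12 pairs, with a coverage of 5294 tags, and the level of its transcripts hardly differed (log2 fold change 0.04 ± 0.08 SE, 476 and 473 RPKM in the controls, 494 and 473 in *Qk cKO*). Choline kinase alpha (*Chka*), which starts phosphatidylcholine synthesis, had a 5′ exon use of 0.930 and 0.973 in the controls and 0.861 and 0.833 in *Qk cKO* (Δ*I* 0.103, FDR 0.0232 by Fisher's exact test). All 4 values were high, and the change rested on the tags joining the 3′ exon to its downstream flank, which numbered 8 and 3.09 in the controls and 19.2 and 16 in *Qk cKO*.

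Several called pairs lie in genes of the cytoskeleton or of cell contacts. *Cyfip1* encodes a subunit of the WAVE complex that drives branching of actin filaments. Use of its 5′ exon was 0.452 and 0.489 in the controls and 0.70 and 0.739 in *Qk cKO*. The groups were well apart and the samples of each group close together, and use rose from 0.467 to 0.718 (Δ*I* -0.251, FDR 3.04e-07 by Fisher's exact test, FDR 0.174 by the edgeR interaction test). Erbin (*Erbb2ip*), a scaffold protein of the basolateral membrane, had a 5′ exon use of 0.150 and 0.151 in the controls and 0.341 and 0.301 in *Qk cKO*. Use rose from 0.150 to 0.321 (Δ*I* -0.170, FDR 1.73e-08 by Fisher's exact test, FDR 0.174 by the edgeR interaction test). The synaptic scaffold *Cask* had a use of 0.685 and 0.639 in the controls and 0.772 and 0.757 in *Qk cKO*. The rise from 0.663 to 0.765 was called (Δ*I* -0.102, FDR 0.00476). The actin cross-linker *Actn4* had 3 listed exons on chromosome 7 whose positions could not be settled. For the pair with the larger coverage (636 tags), 5′ exon use was 0.509 and 0.518 in the controls and 0.594 and 0.641 in *Qk cKO* (Δ*I* -0.103, FDR 0.0352). A second called *Actn4* pair shares the 5′ exon with it and had a Δ*I* of -0.0988, just under the limit in size.

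*Apc*, which binds β-catenin and microtubules, had 2 called pairs that share the junctions to the downstream flank and the isoform tags. In the pair with the larger coverage (158 tags), 5′ exon use was 0.833 and 0.855 in the controls and 0.736 and 0.746 in *Qk cKO* (Δ*I* 0.104, FDR 0.0909), and in the other Δ*I* was 0.129. The tags that moved were those from the 3′ exon to the downstream flank, 24 and 27 in the controls and 46 and 48 in *Qk cKO*. In the list of actin and microtubule genes, 16 pairs in 12 genes were tested, of which 7 were called, 2 with the 5′ exon higher in the controls and 5 with it higher in *Qk cKO*, while 4.01% of all tested pairs were called. The median size of Δ*I* was 0.0415 in this list and 0.0322 over all tested pairs. The list was written with earlier results of these data known and holds *Apc*, *Cask* and *Erbb2ip*, so its count is a description.

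**Figure D2:**
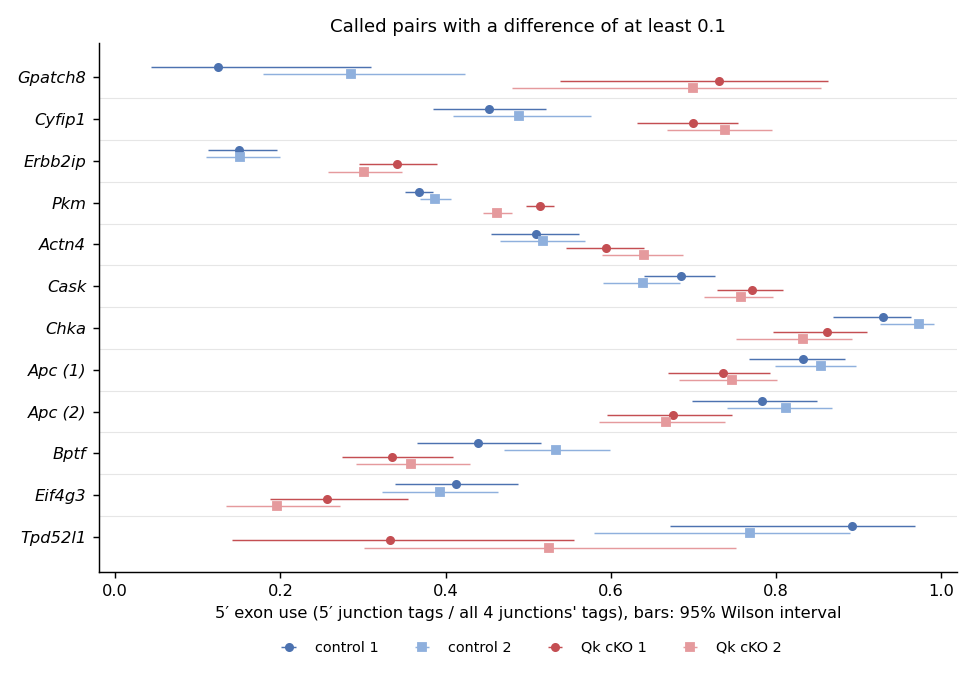
5′ exon use in each sample for the 12 called pairs with a Δ*I* of at least 0.1 in size, with 95% Wilson intervals from the junction tags (counting error). The *Qk cKO* points lie above the control points in *Gpatch8*, *Cyfip1*, *Erbb2ip*, *Pkm*, *Actn4* and *Cask* and below them in *Chka*, both *Apc* pairs, *Bptf*, *Eif4g3* and *Tpd52l1*.

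The remaining pairs lie in genes of differing roles. *Bptf*, the largest subunit of the chromatin remodeller NURF, used its 5′ exon (chr11:107095002-107095190) at 0.439 and 0.534 in the controls and 0.335 and 0.359 in *Qk cKO*. The 2 controls differed from each other about as much as the lower of them differed from *Qk cKO*, and use fell from 0.494 to 0.347 (Δ*I* 0.147, FDR 0.0053). *Eif4g3*, a scaffold of the translation initiation complex, has coding micro-exons of 33 and 21 bases at chr4:138087533-138087565 and chr4:138095909-138095929. Use of the first was 0.413 and 0.393 in the controls and 0.256 and 0.196 in *Qk cKO* (Δ*I* 0.179, FDR 0.0827). *Gpatch8*, a G-patch protein, showed the largest Δ*I* in size of the 598 pairs. Use of its 5′ exon of 35 bases (chr11:102537112-102537146) was 0.125 and 0.286 in the controls and 0.731 and 0.70 in *Qk cKO*, a rise from 0.233 to 0.717 (Δ*I* -0.485, FDR 0.0698). It rested on few tags (coverage 46), and no annotated transcript holds either exon wholly within its coding sequence. The D52 family gene *Tpd52l1* had a 5′ exon use of 0.892 and 0.769 in the controls and 0.333 and 0.525 in *Qk cKO* (Δ*I* 0.392, FDR 0.0107). Its coverage of 25.7 tags was the lowest of the 12, and the intervals of the samples were wide. Of these 12 pairs, *Pkm*, *Cyfip1*, *Erbb2ip* and *Cask* stayed called whichever sample was left out, and the others did not. Only *Cyfip1* and *Erbb2ip* also kept a Δ*I* of at least 0.1 in size. That of *Pkm* was -0.086 without *Qk cKO* replicate 1. That of *Cask* was -0.0797 without control replicate 2 and -0.0942 without *Qk cKO* replicate 1.

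Of the 12 called pairs with a smaller Δ*I*, 8 used the 5′ exon more in *Qk cKO* and 4 less. Those with higher use in *Qk cKO* were the second *Actn4* pair, *Prrc2c* (Δ*I* -0.0867), 2 pairs of *Map4k4* that share their 5′ exon (Δ*I* -0.0729 and -0.053), *Srgap1* (Δ*I* -0.0456), *Auts2* (Δ*I* -0.0353), *Rps24* (Δ*I* -0.0225) and *Rpl13a* (Δ*I* -0.0215). Those with lower use were *Rab6a* (Δ*I* 0.0532), *Vcan* (Δ*I* 0.0514), *Prdx2* (Δ*I* 0.0342) and *Eef1d* (Δ*I* 0.00242). *Rab6a*, a GTPase of Golgi transport whose exons are printed above, used its 5′ exon at 0.128 and 0.146 in the controls and 0.0856 and 0.0813 in *Qk cKO*. Both *Qk cKO* values lay below both controls (FDR 6.23e-05 by Fisher's exact test, FDR 0.371 by the edgeR interaction test). In *Prdx2*, an abundant peroxidase, the junction between the 2 exons had 4127 to 5334 tags in a sample, whereas those of single-exon transcripts had at most 20.03, so transcripts with both exons far outnumbered those with 1 of them.

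How exclusive the pairs are was measured from 4 junctions, each held by transcripts with the 5′ exon alone (5′ exon to downstream flank), the 3′ exon alone (upstream flank to 3′ exon), both exons (5′ exon to 3′ exon) or neither (upstream to downstream flank). The last 2 were taken from the cassette and tandem cassette events with the same ends, and 160 tested pairs had all 4 junctions listed with at least 20 tags. In the median pair, 29.5% of these path tags came from transcripts with exactly 1 of the exons, 29.7% from those with both and 12.7% from those with neither. The most frequent path carried both exons in 61 pairs, neither in 49 and 1 exon in 50. Only 3 of the 160 pairs (1.88%) had at least 90% of path tags with exactly 1 exon, namely *Rps24*, *Golga2* and *Eef1d*, and in each of them nearly all those tags came from the same exon. *Rps24* is 1 of 189 tested pairs from events with more than 2 listed exons. Transcripts that pass through a further listed exon need not hold any of the 4 junctions, so a high share in such a pair need not mean exclusive use. A pair could enter this set only where junctions for both exons and for neither were already listed. The shares therefore describe these 160 pairs and do not speak for the other tested pairs. No textbook pair had all 4 junctions listed, so the classical pairs are not covered either. Since the junctions into the 5′ exon and out of the 3′ exon are shared with transcripts that carry both, the use of the pairs was recalculated from the 2 junctions of single-exon transcripts alone, a measure chosen after the data were seen.

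By this measure 16 of 598 pairs were called by Fisher's exact test (2.68%), 9 of them among the 24 called pairs. Of the 12 pairs named above, *Pkm*, *Cyfip1*, *Bptf*, *Eif4g3* and *Gpatch8* kept their call and direction. *Pkm* moved from 0.340 to 0.459 and *Cyfip1* from 0.499 to 0.769, close to the values from all junctions, and *Gpatch8* moved from 0.289 to 0.80. In *Bptf* the change was larger than before, from 0.737 to 0.309 (FDR 3.55e-05). *Erbb2ip*, *Cask*, *Actn4*, *Chka*, *Tpd52l1* and both *Apc* pairs lost the call. The difference of *Cask* was not smaller than before, with a single-exon use of 0.803 in the controls and 0.930 in *Qk cKO* (control minus *Qk cKO* -0.127, FDR 0.144). That of *Actn4* was -0.0702, that of *Erbb2ip* -0.0251, that of *Chka* 0.0145, and those of the *Apc* pairs 0.0292 and 0. In the second *Actn4* pair the sign turned (from -0.0988 to 0.00671), on at most 1.45 tags a sample from the upstream flank to the 3′ exon. The 7 calls outside the 24 were those of *Lphn2*, *Zfp946*, *Dlg2*, *Churc1*, *AI854517* and 2 pairs of *Dlgap4*, for example *Dlg2*, a synaptic scaffold, with 0.396 in the controls and 0.203 in *Qk cKO* (FDR 0.0696). In *Churc1* and *AI854517* the sign turned, from a Δ*I* of 0.0501 to -0.631 in *Churc1* and from 0.0173 to -0.604 in *AI854517*. For *Apc*, the tags from the upstream flank to the 3′ exon numbered 2, 2, 5 and 4 in the 4 samples of the deeper pair and 0 in all 4 samples of the other. For *Tpd52l1*, these tags were at 0.233 or below in every sample.

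**Figure D3:**
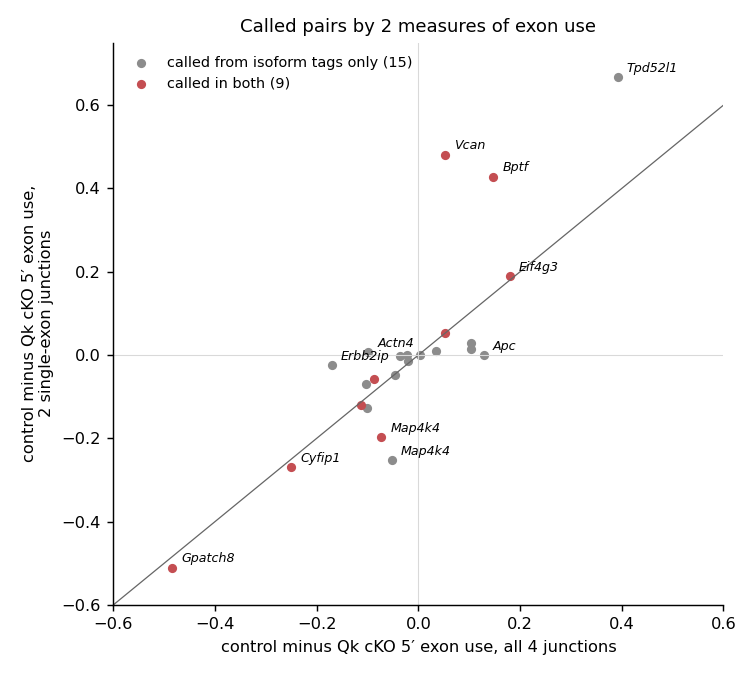
Difference in 5′ exon use (control minus *Qk cKO*) of the 24 called pairs from all 4 junctions (horizontal axis) and from the 2 junctions of single-exon transcripts (vertical axis), with the line of equality. *Vcan* and *Bptf* lie far above the line and both *Map4k4* pairs below it, *Pkm*, *Cyfip1*, *Eif4g3* and *Gpatch8* lie near it, and the point of *Tpd52l1* rests on fewer than 10 tags.

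The paths show which transcripts carry the difference in these genes, and differences between path shares were not tested. In *Erbb2ip*, transcripts with the 3′ exon alone gave 78.2% and 67% of path tags in the controls and 27.8% and 38.2% in *Qk cKO*, whereas those with both exons gave 14% and 19.4% in the controls and 67% and 59.6% in *Qk cKO*. Transcripts with the 5′ exon alone stayed at or below 1.62% in all samples. An exchange of the exons of 144 and 117 bases is not what these junctions show, since the groups differ in how often the 144-base exon is added beside the 117-base exon. In *Cask* the corresponding shares were reversed in order. Both exons were present in 79.9% and 82.3% of path tags in the controls and 53.0% and 54.6% in *Qk cKO*, and the 5′ exon alone in 18.2% and 12.1% in the controls and 44.1% and 41.8% in *Qk cKO*, so it is the 36-base 3′ exon that is held by fewer transcripts in *Qk cKO*. No sample had a tag of a *Cask* transcript with neither exon.

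Versican (*Vcan*), a chondroitin sulfate proteoglycan of the brain matrix, and *Map4k4*, a kinase acting on cell motility, are described in more detail because of their paths, a choice made after their values were seen. The *Vcan* exons of 2880 and 5217 bases (chr13:89702918-89705797 and chr13:89688285-89693501) encode the glycosaminoglycan-bearing domains α and β. Transcripts with both are known as V0, with β alone as V1, with α alone as V2 and with neither as V3. The junction of V2 had 21 and 17.1 tags in the controls and 2 and 0 in *Qk cKO*, and that of V1 had 24.2 and 13 in the controls and 39.5 and 38 in *Qk cKO*. Among transcripts with exactly 1 of the exons, the share of α fell from 0.506 to 0.0252 (FDR 2.85e-10 by Fisher's exact test). V0 made up 76.7% and 74.3% of path tags in the controls and 76.7% and 78.3% in *Qk cKO*. The groups nearly touched in V0 and were far apart in V1 and V2. The edgeR interaction test on all isoform tags did not call *Vcan* (FDR 1), and no edgeR test of the single-exon tags was run.

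In *Map4k4*, transcripts with the 231-base 3′ exon alone made up 19.8% and 23.2% of path tags in the controls and 4.86% and 5.35% in *Qk cKO*. Both exons were present in 73.9% and 70.6% in the controls and 90.9% and 91.7% in *Qk cKO*. The 5′ exon of 162 bases (chr1:40001430-40001591) is thus the one whose presence differs, and from single-exon junctions the use rose from 0.0427 to 0.24 (FDR 3.55e-05). *Bptf* transcripts with the 5′ exon alone gave 19.8% and 29.3% in the controls and 12.1% and 9.42% in *Qk cKO*, and those with the 3′ exon alone 6.60% and 10.8% in the controls and 22.8% and 25.2% in *Qk cKO*, so the 2 single-exon forms stood in opposite order in the groups. *Eif4g3* mostly skipped both micro-exons, in 60.3% of path tags in the controls and 74.1% in *Qk cKO*. *Gpatch8* has no listed junction between its exons, and its transcripts with neither exon gave 99 and 56 tags in the controls and 135 and 115 in *Qk cKO*, against at most 18 tags on any junction of the pair.

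**Figure D4:**
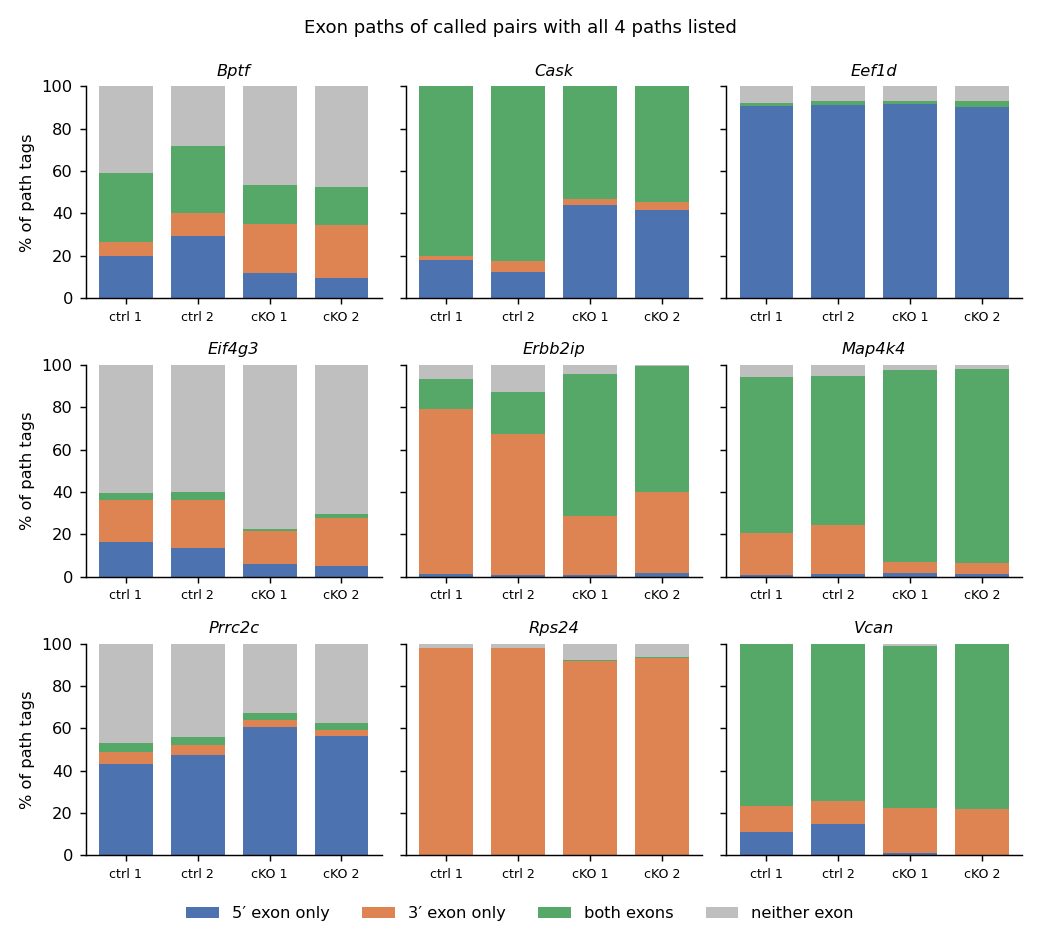
Percent of path tags in each sample for transcripts with the 5′ exon only, the 3′ exon only, both exons or neither, in the 9 called pairs with all 4 junctions listed. The shares with both exons differ most between groups in *Erbb2ip* (16.6% in control, 63.3% in *Qk cKO*) and *Cask* (81.1% and 53.8%).

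*Rps24*, a protein of the small ribosomal subunit, was called by Fisher's exact test, edgeR and DESeq2. Its 18-base 5′ exon was rare, with a use of 0.00506 and 0.00573 in the controls and 0.0286 and 0.0271 in *Qk cKO*. Tags from the upstream flank into this exon numbered 36 and 32 in the controls and 125 and 104 in *Qk cKO*. No tags, or fewer than 0.1 in a sample, joined it to the downstream flank. The tags of the 20-base 3′ exon were fewer in both *Qk cKO* samples than in both controls, so the difference in use came from both exons. Transcripts with neither short exon had 79 and 68 tags in the controls and 201 and 148 in *Qk cKO*, and those with the 20-base 3′ exon alone made up 97.9% of path tags in the controls and 92.6% in *Qk cKO*. The gene's level was nearly the same in both groups (log2 fold change -0.03 ± 0.08 SE).

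The textbook list named genes in which mutually exclusive exons are well known. It held 56 pairs in 39 genes, of which 38 pairs in 28 genes were tested, and 4 were called (4.01% of all tested pairs were called). These were the pairs of *Pkm* and *Cyfip1* and both *Actn4* pairs, which come from the same event, all with higher 5′ exon use in *Qk cKO*. The list was written with earlier results of these data known, so its count is a description. The median size of Δ*I* was 0.0346 in the list and 0.0322 over all tested pairs, and 5 of the 38 pairs had a size of at least 0.1, as had 80 of all 598. The largest that was not called was a second, upstream pair of *Pkm* (Δ*I* 0.368, FDR 0.21), with 46 tags of coverage and non-coding exons. In *Cacna1c*, a calcium channel, 1 of 4 tested pairs had a Δ*I* of 0.187 (0.887 and 0.75 in the controls, 0.65 and 0.617 in *Qk cKO*, FDR 0.416).

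Receptors with classical pairs used their 3′ exon more than their 5′ exon. The AMPA receptor genes have a 5′ flop and a 3′ flip exon of 115 bases each. Flop use was 0.125 and 0.115 in the controls and 0.0917 and 0.112 in *Qk cKO* for *Gria1*, and 0.314 and 0.292 in the controls and 0.310 and 0.279 in *Qk cKO* for *Gria2*. In *Gria4* it was 0.113 and 0.113 in the controls and 0.209 and 0.140 in *Qk cKO*, on 41.5 tags of coverage. Flip was the more used exon in all 3 genes, none of the 3 pairs was called, and *Gria3* was not tested for lack of tags. The growth factor receptor *Fgfr3* used its 5′ exon, IIIb, at 0.0193 and 0.0169 in the controls and 0.0458 and 0.0421 in *Qk cKO* (Δ*I* -0.026, FDR 0.788). Among ion channels as a whole, 9 pairs in 6 genes were tested and none was called. These are too few pairs to set against the 4.01% called over all tested pairs.

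Kinases and others spanned the range of use. The kinase *Fyn* used its 5′ exon at 0.983 and 0.985 in the controls and 0.966 and 0.967 in *Qk cKO* (FDR 0.379). The stress kinase *Mapk10* used it at 0.966 to 0.998 and the histone variant gene *H2afy* at 0.988 to 0.997 in all samples. *Mapk14* (0.498 and 0.461 in the controls, 0.526 and 0.506 in *Qk cKO*) and the prolyl hydroxylase *P4ha1* (0.514 and 0.417 in the controls, 0.440 and 0.451 in *Qk cKO*) used both exons about equally. The splicing factor *U2af1* used its 5′ exon at 0.195 and 0.217 in the controls and 0.257 and 0.206 in *Qk cKO*. In *Mapk14* the groups did not overlap but lay closer to each other than the limit of 0.1, and in *P4ha1* and *U2af1* the groups overlapped.

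**Figure D5:**
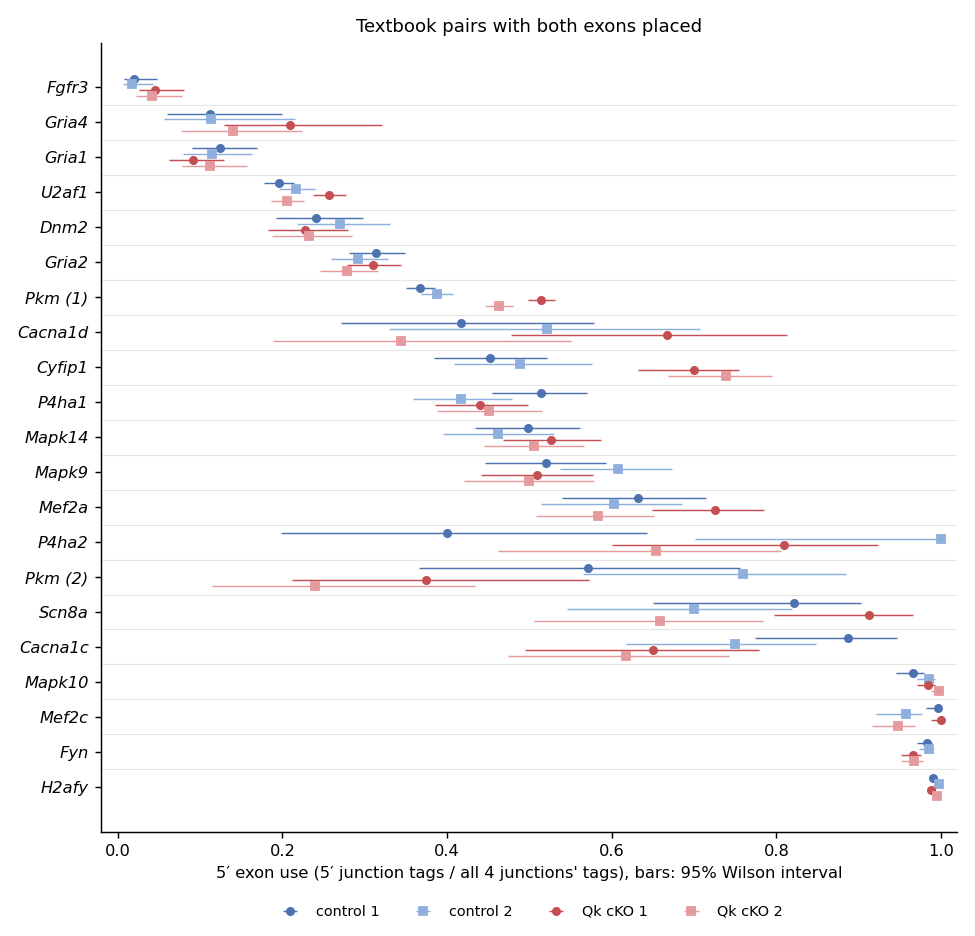
5′ exon use in each sample for the 21 tested textbook pairs whose exons could both be placed, ordered by use in control, with 95% Wilson intervals (counting error). Points run from 0.0169 in *Fgfr3* to 1.0 in *P4ha2* and *Mef2c*, and the groups stand apart with narrow intervals in *Pkm* (1) and *Cyfip1*.

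The chromatin list had 5 tested pairs in 5 genes, of which only *Bptf* was called (against 4.01% of all tested pairs), with a median Δ*I* of 0.0209. None of the 5 pairs in genes of the splicing regulator list had enough tags to be tested.

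The positions of both exons could be settled for 490 of the 598 tested pairs. The median length was 104 bases for the 5′ exon and 101 bases for the 3′ exon, with a median intron of 2760.5 bases between them. Exons of equal length made up 28 of the 490 pairs (5.71%), and the lengths differed by a multiple of 3 in 230 (46.9%). Among the 21 called pairs that were placed, 2 had equal lengths (*Pkm* and *Rab6a*) and 14 (66.7%) differed by a multiple of 3. Among the 21 textbook pairs, 11 had equal lengths and 18 (85.7%) differed by a multiple of 3. Sequence of both exons was found for 477 pairs, with a median identity of 46.3% in all, 51.3% in the 21 called pairs and 65.3% in the textbook pairs. An identity of at least 60% was found in 45 of the 477 pairs (9.43%), the highest in the calcium channel *Cacna1d* (78.8%) and in *Gria4* (77.4%), and in 5 called pairs, *Rab6a*, *Pkm*, *Bptf*, *Cyfip1* and *Rps24*. The hexamer ACTAAC, searched on the transcribed strand of the exons only, was present in 13 of the 477 pairs (2.73%), and its reverse complement in 7 (1.47%). Of the 21 called pairs, 5 held it (*Cask*, *Prrc2c*, *Vcan* and both *Map4k4* pairs, which share the exon). The exons that hold it had a median length of 129 bases, and a match is a description that does not mark a binding site.

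Host gene levels were tested on their tags with edgeR's quasi-likelihood model. None of the 440 genes with a tested pair was called, compared with 0.584% of all 18834 genes, and DESeq2 called none of them. An unadjusted p below 0.05 was found for 53 of the 440 (12%, against 8.76% of all genes). For the 21 genes with a called pair, log2 fold changes (*Qk cKO* over control) ran from -0.16 (*Rpl13a*) to 0.23 (*Erbb2ip*, ± 0.06 SE, FDR 0.144). The level tests use the spread between samples, whereas the 24 pairs were called by Fisher's exact test, which does not use it. Tested against that spread, only the *Rps24* pair was called. Exon use and gene level were therefore not compared by like tests. Of 41 splicing regulators measured, 1 was called, *Qk* itself, whose tags over all exons rose in *Qk cKO* (21.1 and 21.7 RPKM in the controls, 32.5 and 34.2 RPKM in *Qk cKO*, log2 fold change 0.65 ± 0.06 SE). These tags include exons outside the deleted segment.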

How the data were processed

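Polyadenylated RNA of 4 cortex samples was sequenced in paired reads. OLego aligned the reads to the mouse genome (mm10) and to known junctions, and Quantas counted them (versions not given in the sources used here). The authors deposited expected counts of tags per gene, junction and isoform, together with RPKM per gene, which depend on how Quantas divided fragments between isoforms.

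Groups were taken from the sample titles. For each pair, isoform tags (junctions and exon body) were summed over replicates, rounded and compared by two-sided Fisher's exact test (SciPy 1.17.1), with Benjamini-Hochberg adjustment over the tested pairs. Coverage was the smallest sum by group or exon. The call thresholds were p below 0.01 and FDR below 0.1. Alternatives were junction tags only, other coverage limits, edgeR 4.0.16 and DESeq2 1.42.0 (R 4.3.3) interaction tests with sample baselines, the mean of replicates, a Cochran-Mantel-Haenszel test by replicate number, adjustment over 6 event types and each sample left out. Gene tags were rounded and compared by edgeR's quasi-likelihood test with TMM scaling over genes with at least 1 tag, with upper-quartile scaling, filterByExpr, a replicate block and DESeq2 as alternatives. Samples held 37942046 to 42994832 gene tags, and Wilson intervals cover counting error only. The scripts were tested on simulated tags of 11500 events, 200 of them changed, with a set spread between samples that was not estimated from these data. That spread was larger than the one edgeR estimated for the events here, so the counts of false calls do not carry over to these data. Fisher's exact test recovered 199 of the changed events and made 831 false calls. The edgeR interaction test recovered 197 and made 21 false calls. For simulated gene tags, edgeR recovered 196 of 200 changed genes with 8 false calls. Exons were placed with GENCODE M21 (GRCm38), 374 pairs by the number of exons between the flanks and 116 by matching junction tags, and aligned with Biopython 1.88. The named pairs were all called pairs with a Δ*I* of at least 0.1, the tested textbook pairs, and the other called pairs by Δ*I*, besides called splicing regulators and *Qk*. *Vcan*, *Map4k4*, *Rps24*, *Rab6a* and the pairs named for their paths or identity were given in more detail after their values were seen. Members, lists and tests were chosen with earlier results of these data known. The hexamer was searched in exons in place of introns, which were not analysed here.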

Additional observations from a re-analysis of the deposited data

How the results depend on the processing

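The count of 24 called pairs, and of 12 with a Δ*I* of at least 0.1, depended most on the test. Neither count moved by more than 1.5 times with a coverage limit of 10 or 50 or none, or with adjustment over all 6 event types. With the mean of the replicates only Δ*I* was recalculated, so the count of 24 could not change, and 12 again had a Δ*I* of at least 0.1. Keeping 1 event per set of identical junction tags removed no tested pair, so that run could not change either count. With junction tags in place of isoform tags, 70 pairs were called, 39 with a Δ*I* of at least 0.1, and 23 of the 24 were among them. The edgeR and DESeq2 interaction tests each called 1 pair, with 0 of at least 0.1 and 0 of the 12 named pairs, also with each sample left out of the edgeR test (1 to 1 pairs, 0 to 0 and 0 to 0), where a lone sample is assumed to vary like the other group. With single-exon junctions, chosen after the data were seen, 5 of the 12 named pairs kept their call. Leaving out a sample left 12 to 22 called pairs, 4 to 7 with a Δ*I* of at least 0.1, and 5 to 6 of the 12 named pairs. Without control replicate 1 there were 12 calls, 11 of them shared, and *Gpatch8*, *Eif4g3*, *Actn4*, *Tpd52l1* and *Apc* were lost. Without control replicate 2 there were 4 calls of at least 0.1, and *Bptf*, *Chka*, *Gpatch8*, *Eif4g3* and *Apc* lost theirs. Without *Qk cKO* replicate 1 or 2 there were 7 such calls each, *Apc*, *Eif4g3* and *Gpatch8* being lost both times, *Chka* without replicate 1 and *Actn4* without replicate 2. *Tpd52l1* fell below the coverage limit without control replicate 2 and without either *Qk cKO* sample. Named pairs called in all 4 runs were *Pkm*, *Cyfip1*, *Erbb2ip* and *Cask*, of which only *Cyfip1* and *Erbb2ip* kept a Δ*I* of at least 0.1 in size throughout. None of the 12 changed direction under an alternative that gave it a value, although 1 *Apc* pair came to 0 with single-exon junctions, and the second *Actn4* pair, outside the 12, turned to 0.00671. The cause of these differences was not tested.

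Control and *Qk cKO* embryos are described as littermates, but no source says that a replicate number marks a litter, and same-numbered samples did not deviate together (correlation -0.03 over 12339 gene levels and 0.05 over 598 pairs). With the replicate block (Cochran-Mantel-Haenszel test), 23 pairs were called, all among the 24, and 12 of at least 0.1, with *Srgap1* lost. The replicate block gave 1 called host gene in place of 0. Leaving out a sample gave 0 to 9 called host genes, 9 without *Qk cKO* replicate 1 and 2 without replicate 2, and 0 to 1 called regulators, 0 without control replicate 2. Low coverage limits *Tpd52l1* and *Gpatch8* most, and no pair under 20 tags was judged.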
